A study of Rattus norvegicus with 8 samples.

Results

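The cell cycle and division genes described here are a list of 41 genes that drive, copy or check a cell division: cyclins and cyclin-dependent kinases (CDKs), Cdc25 phosphatases, mitotic kinases, spindle checkpoint proteins and the replication machinery. All probe sets of the array annotated with 1 of these symbols and no other were taken, 56 in all. A probe set is the group of oligonucleotides that together read 1 transcript. The 51 with a deposited signal of 50 or more on 2 or more arrays were kept, and they covered 36 of the 41 genes, among 19808 probe sets of the series that met the same minimum. Signal is the Microarray Suite (MAS) 5.0 intensity on a linear scale, and levels of different probe sets are not compared. Cdc25c, Nek2 and Rrm2 had no probe set of their own symbol alone, and their expression was not analysed here. The only probe set of Cdk6 (3.20 to 26.1) and that of Cenpa (22.4 to 61.1) did not reach the minimum, nor did 3 further probe sets, of Cdkn1b, Cdc20 and Cdc25a. The second-highest deposited signal, which decides the matter, was 51 in a kept probe set of Ccne2 and 51.5 in a kept probe set of Ccnd1, against 44.3 in the probe set of Cdc20 and 42.3 in that of Cenpa that were left out.

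The arrays held RNA of testis tissue of adult Sprague-Dawley rats. Tested animals received Adjudin, a compound known to loosen developing germ cells from Sertoli cells, once by gavage at 50 mg/kg, and their testes were taken after 4 d (3 arrays) or 8 h (2 arrays). The controls were untreated rats (3 arrays), with no vehicle group named, and no genotype other than the strain is given. Nothing in the labels ties each array to an animal of its own; the p-values below therefore describe sample-to-sample spread, part of which may be technical. Arrays were hybridised on 3 days, called runs here: each of run 1 and run 3 had 1 array from all 3 groups, while run 2 had 1 array at 4 d and 1 control.

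In the adult testis several kinds of division run side by side. Spermatogonia divide by mitosis, spermatocytes replicate their DNA once and pass through the meiotic divisions, and spermatids no longer divide, while adult Sertoli cells are largely out of the cycle. Cyclins bind CDKs and set their timing, Cdc25 phosphatases remove inhibitory phosphate from CDKs, and inhibitors such as Cdkn1b block them. The spindle checkpoint holds chromosome separation, run by Cdc20 and the anaphase-promoting complex, until every kinetochore is attached.

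At 4 d 1 of the 51 probe sets, that of Bub1, fell against control, 0 rose and 50 did not pass (limma, adjusted p below 0.05 over all 19808 probe sets). Over all probe sets tested 3.71% were called lower and 6.13% higher. The median log2 difference of the 51 was 0.025, beside 0.036 for all probe sets tested, and 24 were negative and 27 positive. A log2 difference under 0.5 in size was found for 47 of the 51 (92.2%), against 77.2% of all probe sets. The 95% confidence interval lay within a 2-fold change in both directions for 44 of the 51 (86.3%), against 69.4% of all probe sets. For the other members that bound does not hold, and a p that misses the threshold does not show that a gene stayed the same.

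**Figure D1:**
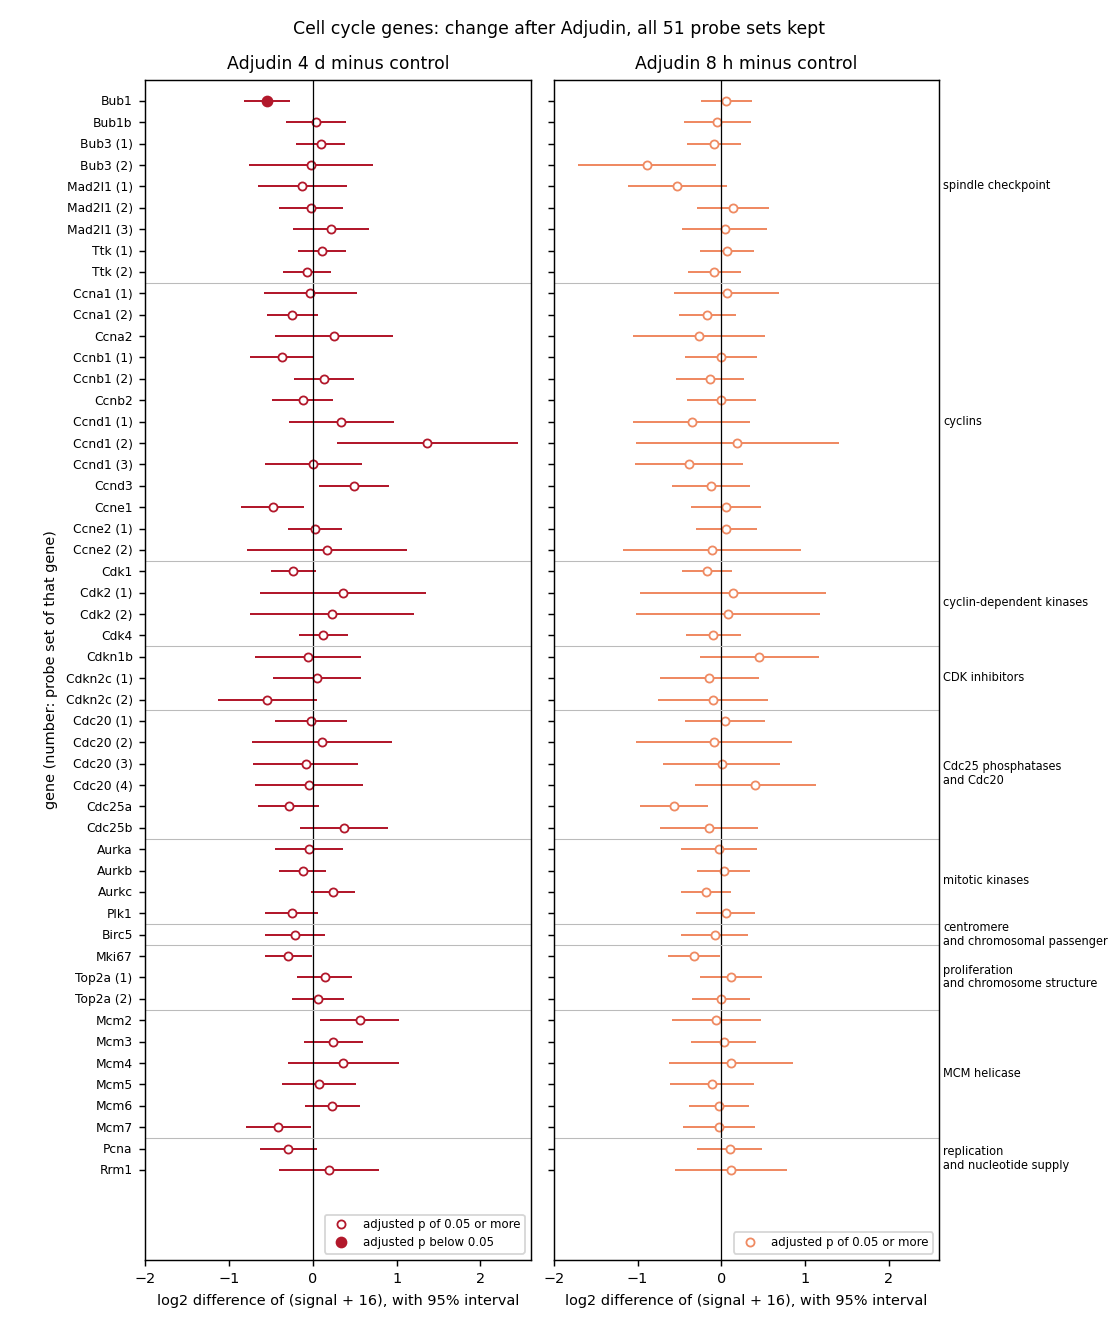
Log2 difference of (signal + 16) for all 51 kept probe sets, with the 95% confidence interval, for Adjudin 4 d minus control (left) and Adjudin 8 h minus control (right); numbers after a gene tell its probe sets apart, in the order of their identifiers. Filled points have an adjusted p below 0.05. Bub1 at 4 d is the only filled point, and most intervals cross 0.

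The spindle checkpoint genes gave the single fall. Bub1, a kinase of the checkpoint at the kinetochore, had signals of 1083, 908 and 1028 at 4 d, 1615 and 1464 at 8 h, and 1494, 1359.9 and 1579 in the controls. All 3 arrays at 4 d lay below every array at 8 h and every control. The fall was 0.684-fold against control (log2 -0.55, SE 0.12; adjusted p = 0.0203 in limma). Within the 3 runs the log2 difference was -0.46, -0.58 and -0.61, and blocking on the run gave an adjusted p of 0.00112. The call was lost without any of the arrays 4 d 1, 4 d 2, 4 d 3, control 1 or control 3 (adjusted p of 0.0502 to 0.0800), with the array medians made equal (0.130) and without a trend in the variance (0.0555). It was also lost without run 1 (0.235) and without run 2 (0.136), while the log2 difference stayed between -0.61 and -0.48 under every setting tried.

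No other checkpoint gene (0) passed at 4 d. Bub1b, which encodes BubR1, a protein of the complex that restrains Cdc20, had 382, 372 and 497 at 4 d, against 352, 395 and 469 in controls (log2 0.037, 95% interval -0.32 to 0.40). Its groups overlapped. Bub3, the partner of both proteins, had 1156, 1269 and 1348 at 4 d, against 1021, 1216 and 1308 in controls on its brighter probe set (log2 0.094), and a dim one gave log2 -0.023. The checkpoint kinase Ttk gave log2 0.11 and -0.073 on its pair of probe sets. Mad2l1, which binds and holds Cdc20, gave -0.13, -0.027 and 0.22 on 3 probe sets.

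Changes in markers of cell types stood beside this result. Of the markers looked up, 3 of the 5 measured genes of round spermatids (7 looked up) and 3 of 8 of elongating and elongated spermatids were lower at 4 d and 0 higher, and 5 and 8 were lower when the run was a block. The summed signal of the round spermatid genes was 11360.0 to 12539 at 4 d, 17817 to 20288 at 8 h, and 17389.8 to 19681 in controls. That of the elongating and elongated spermatid genes was 61941 to 90444 at 4 d, against 87238 to 135507 in controls. The 6 spermatocyte genes measured, of 11 looked up, gave 17402 to 21128 at 4 d, against 17082 to 21456 in controls, and 0 passed. Ldhc (mean 10875 at 4 d, against 11794 in controls) and Sycp3 (5369, against 5194) made up most of that sum. The group's median log2 difference was 0.0085, with 3 negative and 3 positive, and Piwil2 was lower without overlap (log2 -0.32). For the 4 measured of 8 spermatogonium genes the sum was 1642 to 1818 at 4 d, against 1344 to 2125 in controls, with 0 called. In the blocked fit 1 of them, Uchl1, was higher (adjusted p = 0.0320). By its mean Uchl1 was the largest part of that sum (1172 at 4 d, against 911 in controls). The group's median log2 difference was -0.13, with 3 negative and 1 positive. Gfra1 gave -0.53 without passing, with 375, 377 and 255 at 4 d, against 335, 944 and 356 in controls. Its differences within the runs were mixed (0.16, -1.29 and -0.46). Leukocyte genes were higher in 5 of 7, and in 6 in the blocked fit, of which Ptprc was kept only through its 4 d arrays (sum 3110.4 to 4037 at 4 d, against 1011 to 1118 in controls), and both red cell genes measured, of 3 looked up, rose (sum 3198 to 5608 at 4 d, against 1509 to 2484 in controls). Of 6 measured Sertoli genes (9 looked up) 1, Ctsl, rose, and their sum was 17613 to 23761 at 4 d, against 9886 to 11811 in controls. Ctsl (mean 7768 at 4 d, against 2085 in controls) and Clu (11430.4 at 4 d, against 7985 in controls) made up most of that sum, while the group's median log2 difference was 0.084, with 3 negative and 3 positive. In the blocked fit Ctsl and Clu were higher and Inhbb was lower (log2 -0.49). Without a block 0 of the 6 Leydig, 5 peritubular and 3 endothelial genes measured passed. In the blocked fit 3 Leydig genes, Hsd3b1, Insl3 and Star, and the peritubular gene Des were higher, and Myh11, also peritubular, was lower. All 52 measured markers had met the signal minimum, so none could be at 0 on every array. The part of these shifts in the level of Bub1 or any other member was not tested, and in whole testis fewer cells of a type and less RNA per cell cannot be told apart.

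No cyclin probe set (0) passed without a block. Ccne1, cyclin E1, which with Cdk2 opens S phase, had 259, 317 and 235 at 4 d, 409 and 386 at 8 h, and 371, 457 and 325 in controls. The groups at 4 d and in controls did not overlap (log2 -0.48, SE 0.17; adjusted p = 0.113). The run differences were -0.49, -0.51 and -0.44, and blocking on the run put Ccne1 past the threshold (adjusted p = 0.00984). It was also called after quantile normalization (adjusted p = 0.0349).

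Ccnb1, cyclin B1, the mitotic partner of Cdk1, differed between its probe sets. On the brighter it had 1639, 1836 and 1963 at 4 d, 2004 and 2713 at 8 h, and 2063, 2128 and 2927 in controls. The 4 d arrays were the lowest, and the highest 8 h and control values were both from run 3 (log2 -0.37, SE 0.17; adjusted p = 0.234, and 0.0105 after blocking on the run). Its dimmer probe set gave log2 0.13 (95% interval -0.23 to 0.49), of opposite sign. Ccnb2, the other B-type cyclin, gave -0.12 and Ccna1, the A-type cyclin of male meiosis, -0.25 on its bright probe set (-0.032 on a dim one), with 2074, 2366 and 2329 at 4 d, against 2414, 2474 and 3219.6 in controls (adjusted p = 0.327). Ccna2, the A-type cyclin of dividing somatic cells, was below 100 on every array (log2 0.25).

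Of the D-type cyclins listed, which link growth signals to Cdk4 and Cdk6, only Ccnd3 had a signal above 100. Ccnd3 had 267, 182 and 181 at 4 d, 134 and 125 at 8 h, and 126, 147 and 156 in controls. No 4 d array overlapped the others (log2 0.49, SE 0.19; adjusted p = 0.150, and 0.0674 after blocking on the run). Of 3 probe sets of Ccnd1, all below 100 on every array, the one with the smallest p had 73.9, 53.3 and 86.7 at 4 d, 8.1 and 44.3 at 8 h, and 48.8, 4.2 and 12.4 in controls. It reached a signal of 50 on the 4 d arrays alone, so it was kept only through the group in which it was high, and its difference (log2 1.37) is a description with no test. The other probe sets of Ccnd1 gave 0.34 and 0.0073, each with both signs among its run differences. The second E-type cyclin, Ccne2, gave 0.025 on its bright probe set and 0.17 on a dim one.

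The kinases and their regulators showed small differences. Cdk1, the mitotic and meiotic kinase, had 690.0, 686 and 603 at 4 d, 724 and 651 at 8 h, and 737, 797 and 797 in controls. Both treated groups lay below the controls without passing (log2 -0.23 at 4 d, adjusted p = 0.298, and -0.17 at 8 h). Cdk4 gave log2 0.13. Cdk2 gave 0.36 and 0.23 on its probe sets, with 95% intervals without a block of -0.64 to 1.35 and -0.75 to 1.21 that leave a 2-fold change possible. Within the runs the first differed by 0.23, 0.26 and 0.57 and the second by 0.43, 0.21 and 0.047, all positive. With the run as a block the SE was 0.13 and 0.15, and neither probe set passed (adjusted p = 0.0694 and 0.325 in limma). The dimmer of these read 188 at 4 d, 193 at 8 h and 121 in the control of run 3, against 403, 394 and 340.1 in run 1. The brighter read 223, 322 and 215 in run 3, against 684, 518 and 505 in run 1. Both probe sets therefore differed by run in every group. The inhibitor Cdkn1b (p27) gave log2 -0.059 and Cdkn2c (p18) 0.048 on its bright probe set. A dim probe set of Cdkn2c had 49.8, 32.8 and 41.0 at 4 d, 75.2 and 49.5 at 8 h, and 49.8, 85.7 and 68.9 in controls, with the array 4 d 1 level with control 1 (log2 -0.54). It reached 50 on no array at 4 d and was kept through the other groups, so its difference has no test here.

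Cdc25a, the phosphatase that acts at entry to S phase, had 208, 280.0 and 194 at 4 d, 191 and 176 at 8 h, and 287, 269 and 279 in controls. The 8 h arrays were the lowest and the array 4 d 2 lay among the controls (log2 -0.29 at 4 d, adjusted p = 0.340). Cdc25b, which acts at entry to mitosis, gave 0.37. Cdc20, the activator of the anaphase-promoting complex, gave -0.024, 0.11, -0.088 and -0.046 on its 4 kept probe sets. Its brightest probe sets differed in opposite directions between runs: the brighter was higher in run 3 than in run 1 in every group (control 1493 against 929.5), and the next lower (control 706 against 1371).

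Of the mitotic kinases Aurkc, the Aurora kinase of meiotic germ cells, had the only positive difference. It gave 1561, 1441 and 1419.6 at 4 d, 1186 and 1009.7 at 8 h, and 1307, 1263 and 1169 in controls. The 4 d arrays were above all others (log2 0.24 against control, adjusted p = 0.271, and 0.0578 after blocking on the run). Plk1, a kinase of spindle assembly and mitotic exit, had 762, 910.3 and 842 at 4 d, 931 and 1158 at 8 h, and 881, 1033 and 1102 in controls, with overlap between 4 d and control (log2 -0.25, adjusted p = 0.335). Aurka and Aurkb, the Aurora kinases of the spindle poles and of the chromosomal passenger complex, gave -0.041 and -0.12. Birc5 (survivin), also of that complex, had 304, 299.9 and 269 at 4 d, 377 and 274 at 8 h, and 375, 349 and 301 in controls (log2 -0.22, adjusted p = 0.484).

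**Figure D2:**
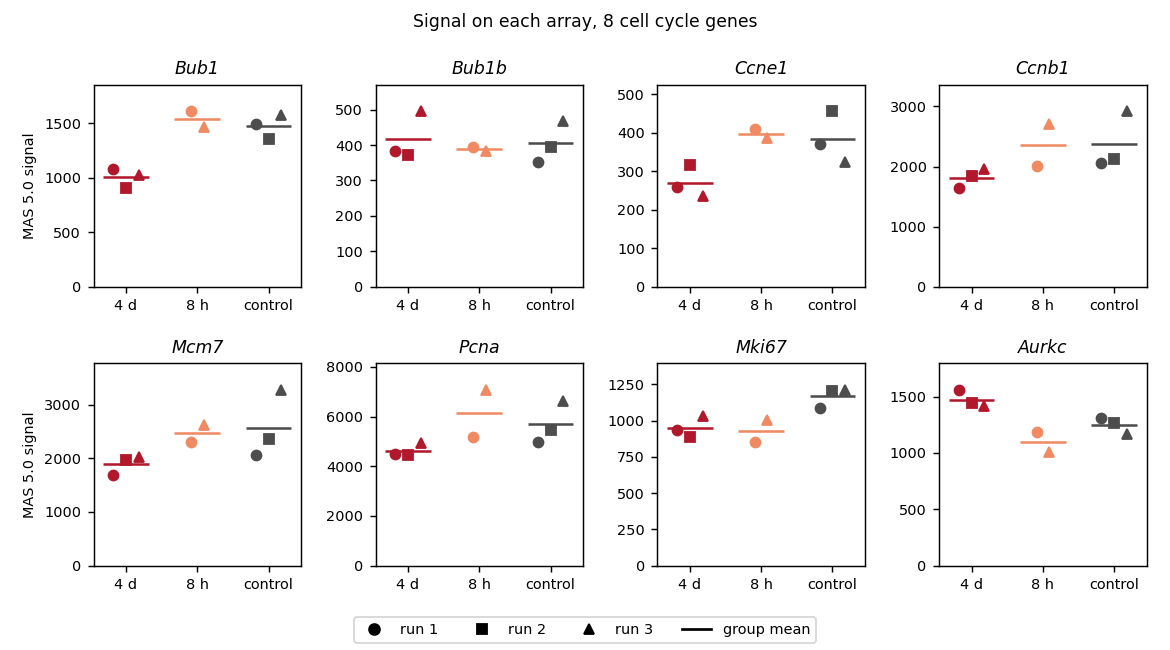
MAS 5.0 signal on each array for 8 genes, grouped as Adjudin 4 d, Adjudin 8 h and control; the marker shape gives the run and the bar the group mean. In Bub1 the 4 d arrays (908 to 1083) lie apart from all others, while in Ccnb1, Mcm7 and Pcna the run 3 arrays at 8 h and in controls are the highest of their groups.

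Mki67, the proliferation antigen Ki-67 that coats mitotic chromosomes, had 937, 884 and 1031 at 4 d, 855 and 1002 at 8 h, and 1083, 1204 and 1212 in controls. No treated array reached the lowest control. Neither difference passed (log2 -0.29, adjusted p = 0.193 at 4 d, and log2 -0.33, adjusted p = 1.00 at 8 h), though blocking on the run took the first past the threshold (adjusted p = 0.0411). Top2a, the topoisomerase that untangles chromosomes, gave 0.14 and 0.065 on its probe sets at 4 d.

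The 6 MCM genes encode the ring that unwinds DNA at replication forks, and their differences had both signs. Mcm7 had 1693, 1961 and 2022 at 4 d, 2311 and 2626 at 8 h, and 2057, 2356 and 3279.8 in controls, with no overlap between 4 d and control (log2 -0.41, SE 0.17; adjusted p = 0.188). It was called lower once the run was a block (adjusted p = 0.0157). The other 5 were all positive: Mcm2 0.56, Mcm4 0.36, Mcm3 0.24, Mcm6 0.23 and Mcm5 0.073 on the log2 scale, and 0 of them passed in either fit. Mcm2 had 109, 133 and 146 at 4 d, 100.3 and 60.5 at 8 h, and 83.2, 79.0 and 84.6 in controls (adjusted p = 0.143).

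Pcna, the sliding clamp that holds DNA polymerase, had 4506, 4441 and 4920.5 at 4 d, 5172 and 7082 at 8 h, and 4983, 5458 and 6647 in controls. Every 4 d array lay below every other array (log2 -0.29, SE 0.15; adjusted p = 0.309, and 0.0158 after blocking on the run). Rrm1, the large subunit of ribonucleotide reductase, which makes deoxynucleotides, gave 0.19 (95% interval -0.41 to 0.79).

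Arrays of 1 run deviated together, so both fits are given. When the run was a block, 6 probe sets were lower at 4 d, those of Bub1, Ccne1, Ccnb1, Mcm7, Pcna and Mki67, or 11.8% of the 51, beside 9.17% of all probe sets in the same fit. The 1 counted as higher, beside 13.3% of all probe sets, was the dim probe set of Ccnd1 that was kept only through its 4 d arrays, so nothing is read from that count. The groups did not overlap in 8 probe sets that were lower (15.7%) and 5 that were higher (9.8%), beside 11.8% lower and 17.5% higher of all probe sets. Within runs 12 probe sets were lower in all 3 and 12 higher in all 3, each 23.5%, beside 24.2% and 31.4% of all probe sets. The same Ccnd1 probe set is among the 5 and among the 12 that were higher, so nothing is read from those counts either.

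**Figure D3:**
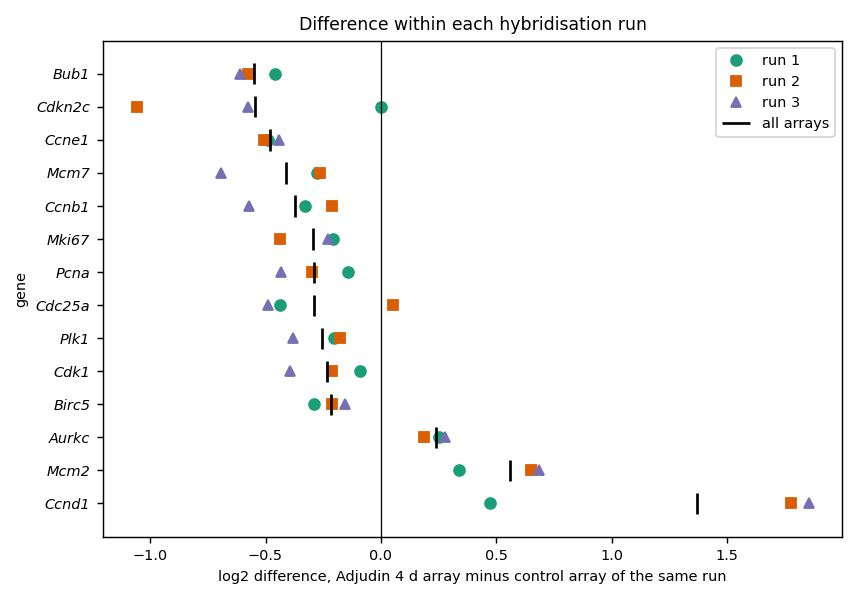
Log2 difference of each Adjudin 4 d array minus the control array of the same run, for the members called in either fit or with the smallest p of their role; the bar is the difference over all arrays. Bub1 lies between -0.46 and -0.61 and Ccne1 between -0.44 and -0.51, while Ccnb1 and Mcm7 are lowest in run 3. The Ccnd1 probe set shown was kept only through its 4 d arrays.

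Between runs, 27 of the 51 probe sets (52.9%) differed in the same direction between run 3 and run 1 in all 3 groups, beside 55.8% of all probe sets. Rrm1 was higher in run 3 by a log2 of 0.55, 0.56 and 0.60 at 4 d, at 8 h and in controls. Aurka was higher by 0.41, 0.28 and 0.61, and Ccnb2 by 0.25, 0.26 and 0.55. The dimmer probe set of Cdk2 shifted by -1.04, -0.97 and -1.38 on the same scale, and the brighter by -1.55, -0.66 and -1.17.

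**Figure D4:**
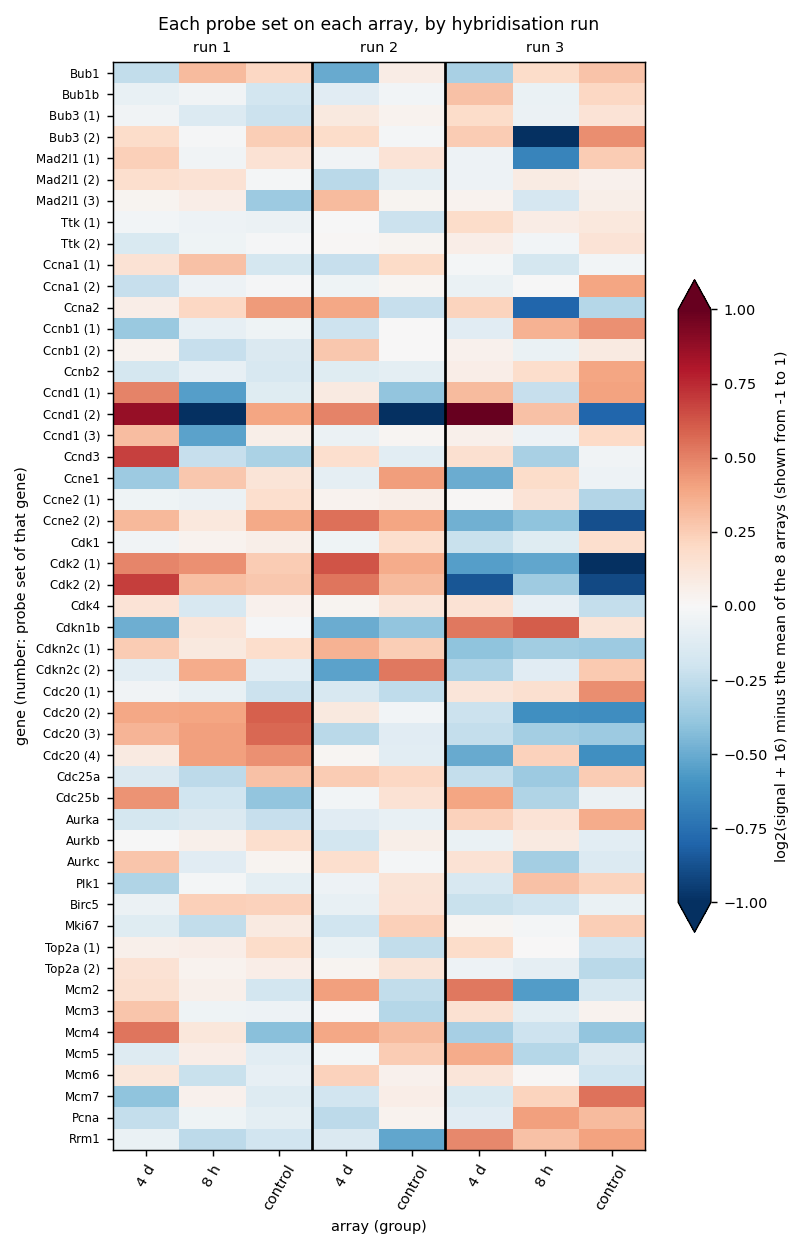
Log2(signal + 16) minus the mean of the 8 arrays for each of the 51 kept probe sets, with arrays ordered by run and, within a run, Adjudin 4 d, Adjudin 8 h and control. Cdk2 is low on all 3 arrays of run 3 and Rrm1 high, and Bub1 is low on the 3 arrays at 4 d.

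At 8 h no member (0 of 51) was called lower or higher against control in limma, in the fit without a block or the blocked fit. Over all probe sets 0% were called lower and 0.0656% higher without a block, and 0.0101% and 0.268% with it. At an unadjusted p below 0.05, 3 members were lower, namely Cdc25a, Mki67 and a dim probe set of Bub3, and 0 higher, beside 1.46% and 2.45% of all probe sets. The groups did not overlap for 6 probe sets that were lower (11.8%) and 1 that was higher (1.96%), beside 7.61% and 7.32% of all. Among the 6 was a dim probe set of Ccnd1 that met the signal minimum on no array at 8 h. It was kept through the other groups, so nothing is read from the count of those lower. Cdc25a had the smallest p (log2 -0.56, 95% interval -0.97 to -0.16, unadjusted p = 0.0117, adjusted p = 0.883). The median of the 51 was -0.028, beside -0.015 for all probe sets. Bub1 gave log2 0.059 at 8 h (95% interval -0.25 to 0.37).

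Between the times, Bub1 was lower at 4 d (log2 -0.61, SE 0.14; adjusted p = 0.0317), 0 members were higher, and over all probe sets 2.47% were lower and 3.58% higher. This comparison shares the 4 d arrays with the one above and is no separate support for it. In the blocked fit Bub1, Ccne1, Ccnb1, Pcna and Plk1 were lower and Aurkc was higher (log2 0.43, adjusted p = 0.0124), beside 7.08% and 8.56% of all probe sets. Plk1 was close to the threshold (adjusted p = 0.0498).

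Of 112 other cell cycle genes looked up, 94 were measured, and at 4 d 1 fell, 0 rose and 93 did not pass, with a median log2 of -0.039. The gene that fell was Anapc10, a subunit of the anaphase-promoting complex, with 187, 179.8 and 158 at 4 d, 285 and 376 at 8 h, and 256, 269.8 and 349.9 in controls. Every 4 d array was below all others (log2 -0.68, adjusted p = 0.0351). In the blocked fit 5 fell (5.32%) and 6 rose (6.38%), beside 9.17% and 13.3% of all probe sets. Of the rises 1 lay among the other CDK inhibitors, the group of Cdkn2a, which was kept only through its 4 d arrays, so nothing is read from the count of rises. A further 1 rise lay among the Rb, E2f and Myb factors and 1 among the genes of origin licensing and replication. Of the falls 3 lay in the group of the anaphase-promoting complex, 1 among the other CDK inhibitors and 1 in origin licensing and replication. Among the falls were Anapc11 (log2 -0.34), of the same complex, and Ube2c (-0.40), the ubiquitin-conjugating enzyme that works with it. Zwint, a kinetochore protein, rose in that fit (log2 0.54; adjusted p = 0.0531 without the block and 0.00136 with it), as did the cohesin subunits Rad21 (0.41) and Stag2 (0.52). The smallest p of the other groups belonged to Cdk5 (0.37), Cdkn2a, Rb1 (0.54), Cdc45 (-0.38) and Chek1 (0.43), and 0 of these passed without a block. Cdkn2a reached a signal of 50 on 4 d arrays alone, so its difference is not given.

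**Figure D5:**
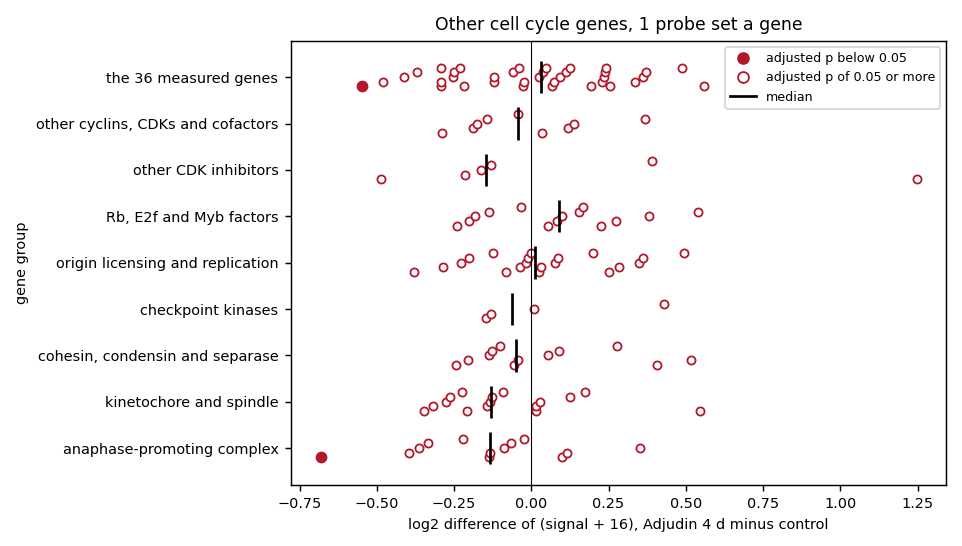
Log2 difference of (signal + 16), Adjudin 4 d minus control, for the 36 measured genes (1 probe set a gene) and 94 other cell cycle genes by group; bars are medians and filled points have an adjusted p below 0.05. Bub1 and Anapc10 are the filled points, at -0.55 and -0.68.

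The promoters of the members were read for short motifs known from cell cycle genes. CCAAT is bound by NF-Y, TTTGAA is the cell cycle genes homology region (CHR) bound by MuvB complexes, and E2F factors bind sites such as TTTGGCG or TTTCCCG. All were searched on both strands in 250 bases before to 50 after the start of each gene (RefSeq, build GRCr8), with matches allowed to overlap. Promoters were found for 34 of the 41 genes. CCAAT was present in 25 (73.5%), beside 37.5% of 33469 rat promoters of that length. TTTGAA was present in 13 (38.2%), beside 18.3%, and the E2F letters in 7 (20.6%), beside 4.96%. Genes were chosen as cell cycle genes, and these shares describe them with no test.

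Without a block Bub1 fell, with one Ccnb1, Mki67, Mcm7, Ccne1 and Pcna fell as well, and Bub1b passed in neither fit. As examples, the promoters of Bub1, its relative Bub1b, Ccnb1, Mki67 and Mcm7 are shown. They lie at chr3:135504872-135505171 (minus strand), chr3:126016817-126017116 (plus), chr2:33655176-33655475 (minus), chr1:199952544-199952843 (minus) and chr12:22163129-22163428 (minus) of GRCr8. Each is written 5′ to 3′ on the strand of its gene, with matches to the motifs in capitals.
Bub1: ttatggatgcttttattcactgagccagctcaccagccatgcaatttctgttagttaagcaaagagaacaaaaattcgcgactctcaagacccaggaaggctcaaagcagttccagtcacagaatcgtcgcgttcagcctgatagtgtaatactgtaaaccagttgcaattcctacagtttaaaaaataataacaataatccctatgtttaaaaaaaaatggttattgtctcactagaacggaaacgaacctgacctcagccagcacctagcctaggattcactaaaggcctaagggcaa
Bub1b: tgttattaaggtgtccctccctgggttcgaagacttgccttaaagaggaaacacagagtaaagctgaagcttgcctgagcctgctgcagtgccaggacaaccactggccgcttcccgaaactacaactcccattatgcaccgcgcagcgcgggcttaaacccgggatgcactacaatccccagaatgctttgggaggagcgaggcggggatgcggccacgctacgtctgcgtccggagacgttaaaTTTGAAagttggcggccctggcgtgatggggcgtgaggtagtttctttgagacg
Ccnb1: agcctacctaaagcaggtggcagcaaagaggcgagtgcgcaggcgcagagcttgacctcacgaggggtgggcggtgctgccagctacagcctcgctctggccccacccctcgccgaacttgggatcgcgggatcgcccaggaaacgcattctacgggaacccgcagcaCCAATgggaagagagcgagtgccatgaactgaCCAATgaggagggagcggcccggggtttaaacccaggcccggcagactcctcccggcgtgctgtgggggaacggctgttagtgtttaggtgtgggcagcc
Mki67: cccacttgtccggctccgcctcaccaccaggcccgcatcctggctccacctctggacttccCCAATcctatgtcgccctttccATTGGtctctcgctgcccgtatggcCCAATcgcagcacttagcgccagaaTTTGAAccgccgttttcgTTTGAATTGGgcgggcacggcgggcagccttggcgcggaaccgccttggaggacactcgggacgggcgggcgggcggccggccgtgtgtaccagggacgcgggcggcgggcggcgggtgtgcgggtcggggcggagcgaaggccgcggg
Mcm7: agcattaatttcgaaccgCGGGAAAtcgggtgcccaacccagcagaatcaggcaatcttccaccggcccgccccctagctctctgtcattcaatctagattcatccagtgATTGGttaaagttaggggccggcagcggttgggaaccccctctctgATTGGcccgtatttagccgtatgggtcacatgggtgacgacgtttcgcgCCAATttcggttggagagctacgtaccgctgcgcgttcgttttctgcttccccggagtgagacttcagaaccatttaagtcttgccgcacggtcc
Bub1 holds none of the motifs (0 matches) and Bub1b holds 1 TTTGAA at its start. Ccnb1 holds 2 CCAAT in the forward direction, Mki67 4 CCAAT and 2 TTTGAA, of which 1 of each share a base, and Mcm7 3 CCAAT and 1 E2F match. Of the other members that fell with the block, not shown, Ccne1 held none of the motifs and Pcna held CCAAT alone. A match is a string of letters, not a site shown to be bound, and a missing match says nothing of a factor.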

How the data were processed

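The labels and the submitters' processing notes name MAS 5.0 for the deposited signal intensity, 1 value per probe set on a linear scale; the design text also names GeneSpring 7.2 without a step. The 2% trimmed mean of each deposited array was 250.1, and each array was brought to 250. Of the scanner settings that the authors deposited for each array, the hybridization day and fluidics version were read.

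All 8 arrays were fitted together in limma 3.58.1 (R 4.3.3; lmFit, eBayes with a trend) on log2(signal + 16), with no block. The added 16 understates fold changes of dim probe sets. P-values were adjusted by Benjamini-Hochberg over the 19808 probe sets with a deposited signal of 50 or more on 2 or more arrays, without the 57 control probe sets. The fit was tested on simulated data with independent noise on each array, so that test does not cover deviations shared within a run. Of 31042 probe sets, 20826 had 1 gene symbol, 436 several and 9780 none; 20758 of those with 1 symbol matched RefSeq by gene identifier, and 0 symbols were updated. Where a gene is counted once, its brightest probe set by mean log2 signal stands for it.

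Same-numbered control and 4 d arrays shared a run. Between groups, deviations from the mean of the group had correlations of 0.353 to 0.506 in 1 run and of -0.475 to 0.246 across runs. Deviations within a group sum to 0, so the values across runs are partly fixed by those within runs. The arrays at 8 h are exact mirrors, and -0.475 is a value of 1 run with its sign turned. The numbers pair control and 4 d arrays through the run. Because of the positive values within runs, the fit with the run as a block is given where it changes a call of a member or a count of markers. The second 8 h array belonged to run 3. Run 2 used version 4 of the fluidics protocol and the other runs version 5. Arrays of 1 group correlated at 0.954 to 0.978, no arrays were identical (0 pairs), and 51.7% to 59.0% of probe sets reached a signal of 50. The number of arrays limits the precision.

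The members, gene lists, motifs and tests were chosen with earlier results of these data known. Values on every array are given for members called in any comparison, in the fit without a block or the blocked one, and for the member with the smallest p of its role at 4 d; other members are given by their differences, with array values for some of them, chosen after the values were seen. Other pathway genes were named per group by the largest called changes, failing which by the smallest p. Some of those called with the block were added afterwards, and the rest were only counted. Alternatives were other pseudocounts, signal minimums and scalings, blocks, fits of 2 groups, no variance trend and each array left out; leaving out a whole run was added after the data were seen.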

Additional observations from a re-analysis of the deposited data

Results flagged for a closer look

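In the fit without a block, Bub1 is the member whose effect differed between the times after Adjudin by a test of the difference itself: the log2 difference of 4 d minus 8 h was -0.61 (SE 0.14, adjusted p = 0.0317 in limma). With the run as a block Ccne1, Ccnb1, Pcna and Plk1 were lower as well, and Aurkc was higher. For Bub1 all 3 arrays at 4 d lay below both arrays at 8 h. Without the array 8 h 1 the adjusted p was 0.169 and without 8 h 2 it was 0.131, and the call also ended without any single 4 d array (0.0662 to 0.0986) or control 1 (0.0518).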

How the results depend on the processing

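The fall of Bub1 kept its direction under all 21 alternatives at 4 d against control (adjusted p of 0.00112 to 0.235, no longer past the threshold in 9) and at 4 d against 8 h (0.00445 to 0.453, in 12). The count of members lower at 4 d against control was 1; it was 2 after quantile normalization, 6 with the run as a replicate block, 4 with the number in the title as a replicate block, 0 with equal medians, 0 without a variance trend, 0 without run 1, 0 without run 2, and 0 to 1 with single arrays left out. The count higher was 0, and 1 with the run as a block, and 0 to 1 with single arrays left out; both counts of 1 are the Ccnd1 probe set that met the signal minimum on the 4 d arrays alone, and they support nothing. Against 8 h, the count lower at 4 d was 1; it was 5 with the run as a replicate block, 4 with the title number as a block, and 0 with equal medians, with only the groups compared, without a variance trend and without run 1, run 2 or run 3, and 0 to 1 with single arrays left out; the count higher was 0, and 1 with either block. Counts at 8 h against control were 0 under every alternative. The cause of these changes was not tested, beyond that fewer arrays were fitted where some were left out. The median log2 difference of the members at 4 d, 0.025, was -0.0080 with no signal minimum, -0.024 with a minimum of 100, -0.019 with equal medians and from -0.010 to 0.054 with single arrays left out; at 8 h, -0.028, it was -0.12 without run 1. Other named members that passed only elsewhere did so with a block, except, at 4 d against control, Ccne1 after quantile normalization (-0.61) and the Ccnd1 probe set without control 1. Over all probe sets at 4 d, 735 were lower and 1214 higher; with the run as a block 1817 and 2632, with the title number 1376 and 2119, with equal medians 413 and 739, without 4 d 1 315 and 580, without 4 d 3 485 and 702, without control 1 452 and 826, without control 2 411 and 767, without run 1 56 and 161, and without run 2 168 and 348. The number of arrays limits what could be seen.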
